A study of Mus musculus with 7 samples.

Results

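Adgre1, Csf1r, Cd68, Mpeg1 and Itgam are genes by which tissue macrophages are commonly recognised. They were taken by their gene symbols on the array, and all probe sets that carry one of these symbols were used, which gave 7 probe sets for 5 of the 12393 genes with a probe set of a single symbol. Csf1r had 3 probe sets and each other gene had 1. Spleen cells were profiled on 7 Affymetrix arrays from female C57BL/6 (B6) mice, 9 to 12 weeks old, that had all been irradiated with 10.0 Gy and given donor splenocytes 4 to 6 h later. The syngeneic group (1 array) received cells of B6 donors, and no antibody is named for it. The 3 allogeneic groups (2 arrays each) received cells of C3H donors, which differ from B6 in their major histocompatibility complex, and an antibody. This was a rat IgG isotype control, or a monoclonal antibody against ICOSL started on day 0 or on day 3, at 500 µg first and 200 µg every other day afterwards. The start day of the isotype control was not given in the sources used here. All spleens were collected on day 4, from 4 mice per group in each experiment, and each allogeneic group's RNA was pooled over mice and then hybridised to 2 arrays. P-values therefore measure only the spread between these arrays, which may be technical. Against the syngeneic array, effects of the donor's strain, of alloreactivity and of being given an antibody cannot be told apart. In RNA of whole spleen cells, fewer macrophages and less RNA per macrophage cannot be told apart either.

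Macrophages of the spleen clear old red cells in the red pulp and capture blood-borne particles in the marginal zone. Their survival depends on signals through the receptor encoded by Csf1r, whose ligands are CSF1 and IL-34. Adgre1 encodes the adhesion G protein-coupled receptor that the F4/80 antibody binds. Cd68 encodes a heavily glycosylated protein of late endosomes and lysosomes. Mpeg1 encodes perforin-2, a pore-forming protein that acts on engulfed bacteria. Itgam encodes CD11b, the alpha chain that pairs with the beta chain CD18 (Itgb2) to form the integrin Mac-1, and it is also carried by neutrophils, monocytes and natural killer cells.

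RefSeq promoter sequence (build GRCm38.p6) was matched for Cd68, Mpeg1 and Itgam, 3 of the 5 genes. The windows run from 250 bases before to 50 bases after the annotated start, and 5 motifs were searched on both strands. The motifs were PU.1 core (GAGGAAG), IRF-type (AANNGAAA), C/EBP (TTNNGNAA), AP-1 (TGANTCA) and the E-box CACGTG. The 250 bases upstream of Cd68 and of Itgam are shown because Cd68 had one of the largest falls of the set against the syngeneic array and Itgam the smallest change. The Cd68 stretch is chr11:69666171-69666420 on the minus strand and the Itgam stretch is chr7:128062390-128062639 on the plus strand, both written 5′ to 3′ up to the base before the start. Capitals mark the motif matches that lie wholly in the stretch.
Cd68: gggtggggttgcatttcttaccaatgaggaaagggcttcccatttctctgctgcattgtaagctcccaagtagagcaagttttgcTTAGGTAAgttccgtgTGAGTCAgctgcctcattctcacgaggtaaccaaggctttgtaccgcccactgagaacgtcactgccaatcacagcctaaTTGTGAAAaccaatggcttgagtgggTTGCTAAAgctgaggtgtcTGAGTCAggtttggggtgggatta
Itgam: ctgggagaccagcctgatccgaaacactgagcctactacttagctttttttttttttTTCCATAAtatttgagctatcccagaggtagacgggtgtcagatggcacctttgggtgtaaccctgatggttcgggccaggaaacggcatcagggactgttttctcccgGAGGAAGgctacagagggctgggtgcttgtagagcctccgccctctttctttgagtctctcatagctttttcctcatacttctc
The capitals of Cd68 are 3 C/EBP matches (first bases at -165, -69 and -43 from the start) and 2 AP-1 matches (-149 and -24). In Itgam they are 1 C/EBP match (-193) and 1 PU.1 core match (-84). Within the 50 bases after the start, Cd68 had an IRF-type match (24), and Itgam had a PU.1 core match (32) that overlaps a C/EBP match (33). The Mpeg1 window held IRF-type matches at -5 and 27 and a C/EBP match at 16. No window of the 3 genes held CACGTG. Among 32851 windows of the same length, 13.6% held the PU.1 core, 23.9% the IRF-type motif, 40.7% the C/EBP motif, 7.81% the AP-1 motif and 7.15% CACGTG. C/EBP and IRF-type matches were thus common and AP-1 matches less so. All are given as a description of the sequence only.

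The MAS5 signal, the unit of all levels here, had been scaled alike on every array, with 2% trimmed means of 500.18 to 500.19 and medians of 145 to 174. All 7 probe sets passed the filter on low signal. As a measure of RNA integrity, the ratio of 3′ to 5′ control probe sets of Gapdh was 0.957 for the syngeneic array and 0.767 to 0.865 for the 6 allogeneic ones. That of Actb was 0.967 to 1.03. The part of the Gapdh difference in the results was not tested.

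The first comparison asks how the macrophage genes of the spleen differed on day 4 between recipients of foreign cells with isotype antibody and of matched cells. Adgre1, Csf1r, Cd68 and Mpeg1 all fell, to between 17.0% and 23.9% of the syngeneic signal on the isotype arrays by the brightest probe set of each gene. The dimmer probe sets of Csf1r were at 19.6% and 15.6%. Itgam was at 76.4% and did not pass the test. With limma, 4 of 5 genes were called lower at an adjusted p below 0.05, where 4.28% of all tested genes were called lower and 2.66% higher. Both isotype arrays were below the syngeneic array for 5 of 5 genes, against 39% of all tested genes. The median log2 change was -2.19 over the 5 genes and -0.01 over the 8947 tested genes.

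Csf1r, the receptor that macrophages need to survive, had a signal of 10891 in the syngeneic spleen and of 1951 and 2022 with isotype by its brightest probe set (1419872_at). Anti-ICOSL arrays read 2726 and 2704 with the start on day 0 and 2834 and 2481 with the start on day 3. The syngeneic array thus stood apart from all 6 allogeneic arrays, and both isotype arrays were below the 4 anti-ICOSL arrays. The fall from syngeneic to isotype was 5.37-fold on the log2(signal + 50) scale (log2 change -2.43 ± 0.20 SE, adjusted p = 0.00272). The other probe sets of Csf1r also fell, with log2 changes of -2.29 ± 0.21 (1419873_s_at, adjusted p = 0.00353) and -2.54 ± 0.26 (1423593_a_at, adjusted p = 0.00518). Against the syngeneic array, the day 0 mean was 24.9%, 30.8% and 26.6% by the 3 probe sets and the day 3 mean was 24.4%, 29.2% and 27.8%. The gene lies at chr18:61105572-61131139.

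Adgre1, the F4/80 gene (chr17:57358581-57483529, probe set 1451161_a_at), read 2344 in the syngeneic spleen, 476 and 474 with isotype, 698 and 635 in day 0 and 804 and 671 in day 3. The isotype arrays were lowest and agreed closely (475.0 ± 0.966, SD, n = 2), and the day 0 and day 3 arrays overlapped. The fall from syngeneic to isotype was 4.56-fold (log2 change -2.19 ± 0.21 SE, adjusted p = 0.00404).

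Cd68, the lysosomal glycoprotein gene (chr11:69664213-69666170, probe set 1449164_at), read 2289.9 in the syngeneic spleen, 375 and 402 with isotype, 468 and 593 in day 0 and 455 and 407 in day 3. Its isotype mean, at 17.0% of syngeneic, was the lowest share among the 5 counted probe sets. The fall was 5.34-fold (log2 change -2.42 ± 0.22 SE, adjusted p = 0.00353). Its groups ran in the order syngeneic, day 0, day 3 and isotype without overlap, but neighbouring allogeneic groups lay as close as 407 (day 3) and 402 (isotype).

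Mpeg1, the perforin-2 gene (chr19:12460770-12465285, probe set 1427076_at), read 3682 in the syngeneic spleen, 1007 and 750.0 with isotype, 1300.2 and 897 in day 0 and 1057 and 940.3 in day 3. All 3 allogeneic groups overlapped one another and lay below the syngeneic array. The fall from syngeneic to isotype was 4.06-fold (log2 change -2.02 ± 0.30 SE, adjusted p = 0.0147). Without isotype array 2 this call was lost (log2 change -1.82, adjusted p = 0.0595), while the adjusted p lay between 0.000209 and 0.0595 over all 14 alternatives.

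Itgam, the CD11b gene (chr7:128062640-128118491, probe set 1422046_at), followed another order. Its signal was 221 in the syngeneic spleen, 181 and 158 with isotype, 381 and 359 in day 0 and 243 and 213 in day 3. The day 0 arrays were above all others, the syngeneic array lay between the day 3 arrays, and the isotype arrays were lowest. The isotype arrays differed from syngeneic by a log2 change of -0.31 ± 0.20 SE (adjusted p = 0.419), with a 95% interval from -0.80 to 0.17. Taken within each array against the mean log2 value of the other 4 genes, and set to 0 on the syngeneic array, Itgam was 1.99 and 1.91 higher with isotype, 2.49 and 2.50 in day 0 and 1.95 and 1.98 in day 3, a difference between genes that was not tested. At the signal of Itgam the added 50 units shrink a change, and over 14 alternative settings its log2 change against syngeneic lay between -0.39 and -0.19.

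**Figure D1:**
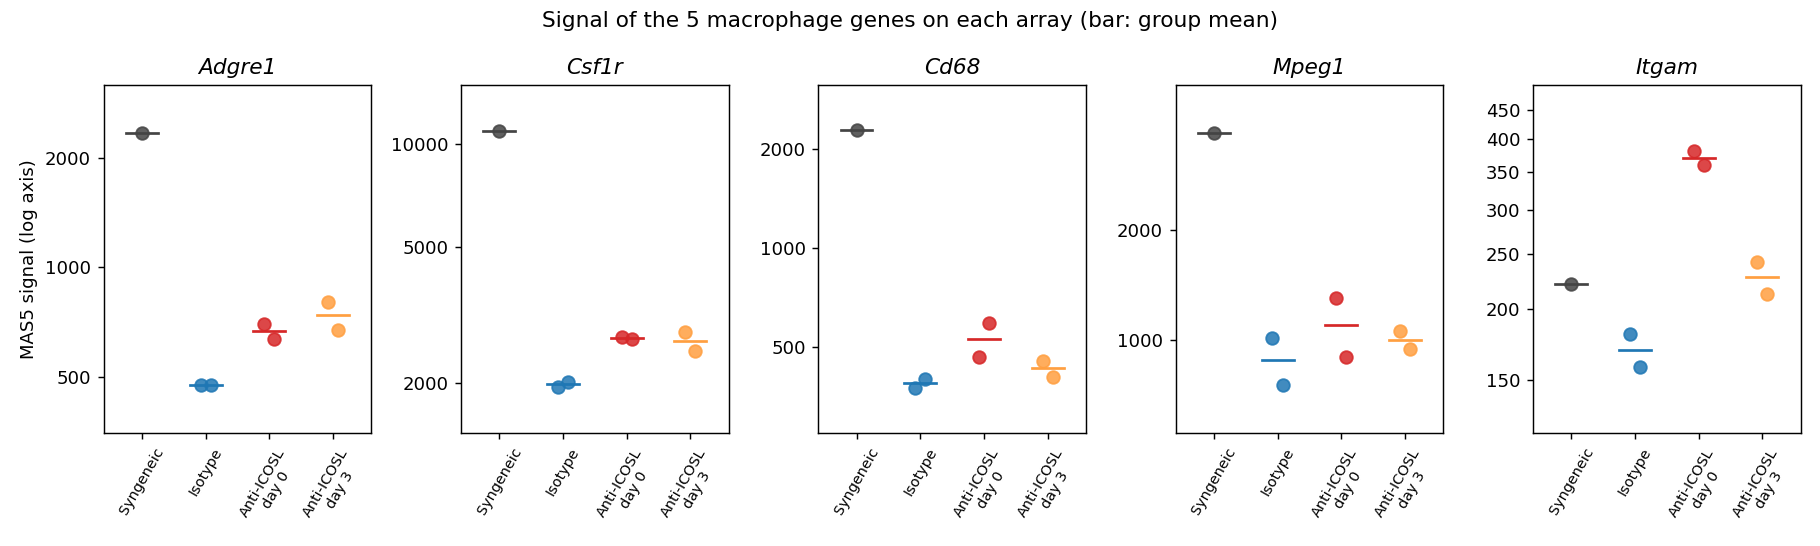
MAS5 signal (log axis) of the counted probe set of each of the 5 genes on the 7 arrays, with points for arrays and bars for group means. For Adgre1, Csf1r, Cd68 and Mpeg1 the syngeneic array stands above all 6 allogeneic arrays, whereas for Itgam the day 0 arrays (381 and 359) are highest.

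The anti-ICOSL groups were also set against the same syngeneic array. All comparisons with it share that array, so their values are given side by side and do not support one another. In day 0, 4 of 5 genes were called lower (background 4.24% of tested genes, with 3.15% called higher), with log2 changes of -1.74 ± 0.21 for Adgre1, -1.98 ± 0.20 for Csf1r, -2.02 ± 0.22 for Cd68 and -1.72 ± 0.30 for Mpeg1, all with an adjusted p of at most 0.0238. In day 3, again 4 of 5 were called lower (background 4.33%, with 3.15% called higher), with -1.61 ± 0.21, -2.02 ± 0.20, -2.28 ± 0.22 and -1.83 ± 0.30 in the same gene order and an adjusted p of at most 0.0205. Itgam had a log2 change of 0.63 ± 0.20 in day 0 (adjusted p = 0.125) and of 0.03 ± 0.20 in day 3 (adjusted p = 0.945). Some calls rested on single arrays. The day 0 call of Mpeg1 was lost without either day 0 array (adjusted p = 0.0561 and 0.0861; 0.000693 to 0.0861 over all alternatives), and with no filter on low signal (0.0534). That of Adgre1 was lost without day 0 array 2 (0.0545; 0.000194 to 0.0545). The day 3 call of Mpeg1 was lost without either day 3 array (0.0648 and 0.0858; 0.000475 to 0.0858) and that of Adgre1 without day 3 array 2 (0.0594; 0.000369 to 0.0792). The dimmer probe sets of Csf1r lost their day 0 call without either day 0 array and their day 3 call without one of the day 3 arrays, array 2 for 1419873_s_at and array 1 for 1423593_a_at. Fitted to the day 3 and syngeneic arrays alone, no probe set passed by limma (4073 had an unadjusted p below 0.05), and Adgre1, Csf1r, Cd68 and Mpeg1 had adjusted p-values of 0.0660 (Cd68) to 0.0792 (Adgre1) by their counted probe sets with the same log2 changes. Itgam had 0.931 in that fit.

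The comparison of day 0 with isotype asks what blocking ICOSL from the time of transplantation did to these genes in the allogeneic spleen. All 5 means were higher on the day 0 arrays, by log2 changes of 0.30 to 0.94, and none passed the test. The median log2 change was 0.44, against 0.02 over all tested genes. Among 15372 probe sets limma made 0 calls (0% of tested genes) with a smallest adjusted p of 0.0853. At an unadjusted p below 0.05 there were 1103, including those of 3 of the 5 genes (7.01% of all tested genes). The day 0 arrays lay wholly above the isotype arrays for 4 of 5 genes, where 19.4% of all tested genes did so.

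Itgam had the widest gap between these groups. Its signal was 370.3 ± 15.8 (SD, n = 2) on the day 0 arrays and 169 ± 16.2 on the isotype arrays, a log2 change of 0.94 ± 0.16 SE (95% interval 0.54 to 1.34, unadjusted p = 0.00100, adjusted p = 0.317). Over 16 alternative settings its adjusted p ran from 0.117 to 0.704. Adgre1 was 667 ± 44.6 against 475.0 ± 0.966 (log2 change 0.45 ± 0.17, adjusted p = 0.680). Csf1r was 2715 ± 15.8 against 1986 ± 49.8 (0.44 ± 0.16, adjusted p = 0.680), with 0.63 ± 0.17 and 0.70 ± 0.21 by its other probe sets. The arrays of both genes did not overlap between the groups. Cd68 was 530.3 ± 88.8 against 388 ± 18.8 (0.40 ± 0.18, adjusted p = 0.735), and for Mpeg1 the arrays overlapped (0.30 ± 0.24, adjusted p = 0.852).

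The comparison of day 3 with isotype asks the same of an antibody started 1 day before the spleens were taken. It uses the same isotype arrays as the comparison of day 0, so the values are given side by side only. Here limma again made 0 calls among 15372 probe sets (0% of tested genes), the smallest adjusted p being 0.0971. An unadjusted p below 0.05 was found for 1573, including those of 2 of the 5 genes (10.6% of all tested genes). All 5 means were higher than in isotype, with a median log2 change of 0.34 against 0.04 over all tested genes. Without isotype array 2 the change of Mpeg1 was -0.014. The arrays did not overlap for 4 of 5 genes, against 25.7% of all tested genes. Adgre1 was 738 ± 94.1 against 475.0 ± 0.966 (log2 change 0.58 ± 0.17, adjusted p = 0.398). Csf1r was 2658 ± 249 against 1986 ± 49.8 (0.41 ± 0.16, adjusted p = 0.471) by its brightest probe set. Its other probe sets had 0.55 ± 0.17 (1419873_s_at, adjusted p = 0.408) and 0.75 ± 0.21 (1423593_a_at, adjusted p = 0.398), on either side of Adgre1. Itgam had 228 ± 21.2 against 169 ± 16.2 (0.34 ± 0.16, adjusted p = 0.536), and the differences of Mpeg1 (0.19 ± 0.24) and Cd68 (0.13 ± 0.18) were smaller than their standard errors.

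Between the starts of the antibody, Itgam was again the gene with the widest gap. It was 370.3 ± 15.8 with a start on day 0 and 228 ± 21.2 with a start on day 3 (log2 change 0.60 ± 0.16, 95% interval 0.20 to 1.00, unadjusted p = 0.00962, adjusted p = 0.659). With limma 0 of the 15372 probe sets passed (0% of tested genes, smallest adjusted p = 0.0914). Of the 1043 with an unadjusted p below 0.05, 1 was that of Itgam and none that of another of the 5 genes (6.27% of all tested genes). The day 0 arrays were wholly above the day 3 arrays for Itgam and Cd68, 2 of 5 genes, against 17.8% of all tested genes. Cd68 differed by 0.26 ± 0.18 (95% interval -0.17 to 0.70). Adgre1 (-0.13 ± 0.17), Csf1r (0.03 ± 0.16) and Mpeg1 (0.11 ± 0.24) overlapped between the groups.

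**Figure D2:**
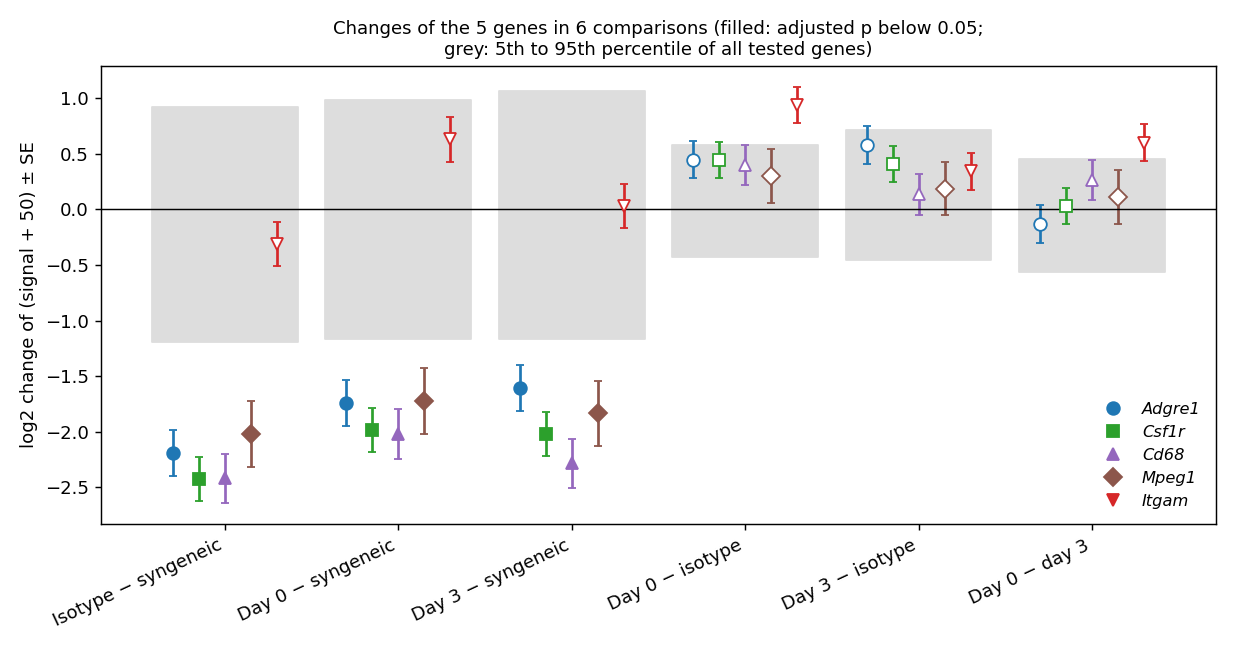
Log2 change of (signal + 50) with its SE for the 5 genes in 6 comparisons, with filled symbols for an adjusted p below 0.05 and grey bands for the 5th to 95th percentile of all tested genes. In the comparisons with syngeneic, 4 genes lie below the band and Itgam within it, and against isotype no symbol is filled.

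The likeness of profiles was described by the root mean square difference between centred log2 values over the 7 arrays, so that 0 is an identical profile. The 7 arrays share the large step between syngeneic and allogeneic spleens, which weighs most in this measure. Adgre1, Csf1r, Cd68 and Mpeg1 differed from one another by 0.133 (Adgre1 and Csf1r) to 0.295 (Cd68 and Mpeg1). Itgam differed from each of them by 0.744 to 0.859. The median over all tested genes was 0.729 to 0.843 for these 4 genes and 0.449 for Itgam.

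The genes most like Csf1r were Igsf6 (0.0752), an immunoglobulin superfamily member, the creatine kinase gene Ckb (0.0762), and Clec4n (0.122), which encodes the C-type lectin dectin-2. For Adgre1 they were the amino acid transporter gene Slc38a5 (0.121), Csf1r (0.133) and the glutathione transferase gene Gstm5 (0.133). For Cd68 they were H2-D1 (0.122), Klra7 (0.124) and C1qc (0.134), a subunit of complement component C1q. H2-D1 encodes a class I molecule of the major histocompatibility complex whose alleles differ between B6 and C3H, and Klra7 a polymorphic natural killer cell receptor. The H2-D1 probe set read 24785 on the syngeneic array and 3995 to 6458 on the allogeneic arrays. For Mpeg1 they were Fcer1g (0.124), the common gamma chain of Fc receptors, Mertk (0.148), a receptor for the uptake of dead cells, and Tspan33 (0.153). For Itgam they were the chemokine gene Ccl9 (0.145), Mast1 (0.148) and Tm6sf2 (0.164). Ccl9 read 499 in the syngeneic spleen, 347 and 303 with isotype, 865 and 819 in day 0 and 478 and 527 in day 3. As for Itgam, its day 0 arrays were highest and its isotype arrays lowest. Ccl9 was picked for its likeness to Itgam, so this shared order is no separate result.

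Around Csf1r, the gene of the ligand CSF1 moved the other way, while Il34 was not among the tested genes. Csf1 rose from 122 on the syngeneic array to 380.2 ± 31.6 (SD, n = 2) on the isotype arrays (log2 change 1.32 ± 0.21, adjusted p = 0.0184). It was 510.3 ± 57.7 on the day 0 arrays and 449 ± 5.98 on the day 3 arrays. Of 17 tested genes for CSF1 receptor ligands, related receptors and signalling, 1 rose and 3 fell between syngeneic and isotype (background 2.66% and 4.28%; median log2 change -0.57 against -0.01 over all tested genes). Those that fell were Tyrobp, the adaptor DAP12 (-1.91 ± 0.20, adjusted p = 0.00556), Csf2ra, the GM-CSF receptor alpha chain (-1.85 ± 0.26, adjusted p = 0.0133), and the kinase gene Fgr (909 to 429 ± 36.0, adjusted p = 0.0390), which was named after its values were seen to complete the count. Csf3r, the G-CSF receptor, had -1.16 ± 0.45 (adjusted p = 0.191). The calls of Csf1 and Csf2ra were lost without either isotype array (adjusted p up to 0.0838 and 0.0542 over all alternatives), and that of Fgr held in 3 of 14 alternatives (up to 0.143).

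Of 14 tested macrophage transcription factor genes, 1 fell and none rose (background 4.28% and 2.66%), with a median log2 change of -0.62. The count was 2 without either day 3 array and up to 5 over all settings (with the filter at the 60th percentile). It was Spic, a factor that red pulp macrophages need to form. The gene read 2262 in the syngeneic spleen and 172 ± 40.7 with isotype (-3.39 ± 0.41, adjusted p = 0.00815). The next in size did not pass: Tfec (-1.78 ± 0.42, adjusted p = 0.0598), Pparg (-1.32 ± 0.54, adjusted p = 0.211) and Tfeb (-0.93 ± 0.22, adjusted p = 0.0586).

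Among 14 tested genes of beta2 integrins, their ligands and adaptors, to which Itgam belongs by function, 1 fell and none rose (background 4.28% and 2.66%). The median log2 change was 0.16. Sirpa, the inhibitory receptor for CD47 on myeloid cells, fell from 2445 to 528 ± 104 (-2.12 ± 0.25, adjusted p = 0.00799). Itgal, the CD11a chain of the lymphocyte integrin LFA-1, had 1.01 ± 0.27 (adjusted p = 0.0805), and Rap1a (0.50 ± 0.21) and Rap1b (0.46 ± 0.25), small GTPases that activate integrins, did not pass. Itgb2, the partner chain of CD11b, was looked up after its values were known. It read 9712 on the syngeneic array, 10029 ± 645 on the isotype arrays, 7621 ± 333 on the day 0 arrays and 7160.4 ± 62.6 on the day 3 arrays. Its log2 change was 0.04 ± 0.19 between syngeneic and isotype and -0.39 ± 0.16 between isotype and day 0 (adjusted p = 0.689), where Itgam had 0.94.

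Of 21 tested genes for lysosome membrane proteins and proteases, the compartment of CD68, 10 fell and none rose (background 4.28% and 2.66%). For 20 of the 21 genes both isotype arrays were below the syngeneic array, against 39% of all tested genes. All 21 had a log2 change below 0 (median -1.04). The largest were Hexa, a subunit of beta-hexosaminidase (-2.20 ± 0.22, adjusted p = 0.00492), Grn, progranulin (-1.62 ± 0.22, adjusted p = 0.0127), Lgmn, the protease legumain (-1.53 ± 0.21, adjusted p = 0.0126), and Scarb2, the membrane protein LIMP-2 (-1.44 ± 0.20, adjusted p = 0.0133). The count was 3 without isotype array 2, 5 without isotype array 1, at most 7 without another array, and 1 in a fit to the compared groups alone. Hexa passed in all 14 alternatives, while Grn, Lgmn and Scarb2 were lost without isotype array 2 and in that fit.

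Of the perforin family and related pore formers, 2 genes were tested besides Mpeg1. Prf1, the perforin of killer lymphocytes, rose from 618 to 3033 ± 78.8 (2.21 ± 0.21, adjusted p = 0.00434), opposite in sign to Mpeg1. C6, a complement component of the membrane attack complex, fell from 925 to 134 ± 19.3 (-2.41 ± 0.43, adjusted p = 0.0264), a call lost in 4 of 14 alternatives, those without either isotype array among them (up to 0.0869). Of 3 leukocyte adhesion receptors related to Adgre1, Adgre4 fell from 1471 to 135 ± 19.3 (-3.04 ± 0.21, adjusted p = 0.00231), while Adgre5, which encodes CD97 (-0.61 ± 0.19, adjusted p = 0.116), and Adgrg3 (-0.46 ± 0.23, adjusted p = 0.305) did not pass. Tyrobp, Spic, Sirpa, Prf1 and Adgre4 passed in all 14 alternatives.

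**Figure D3:**
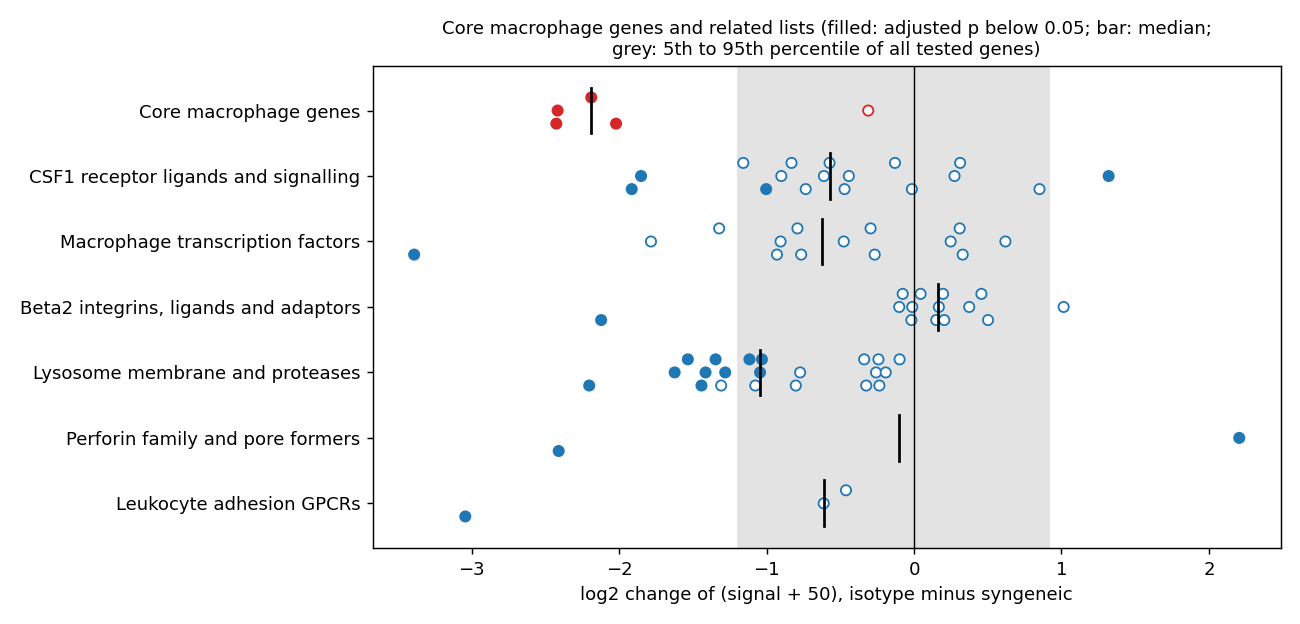
Log2 change of (signal + 50) between isotype and syngeneic arrays for the 5 macrophage genes and 6 related lists, with 1 point per tested gene, filled where the adjusted p was below 0.05, a bar for the median and a grey band for the 5th to 95th percentile of all tested genes. All 21 lysosome genes lie below 0 and the beta2 integrin list has its median at 0.16.

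Against the shared syngeneic array, 18 of the 71 tested genes of these lists were called in day 0 and 21 in day 3. Over all tested genes, 4.24% were called lower and 3.15% higher in day 0, and 4.33% and 3.15% in day 3. Csf1 and Prf1 were called higher in both. In the 3 comparisons between allogeneic groups limma called 0 of the 71. Of these, 6 had an unadjusted p below 0.05 between day 0 and isotype, 6 between day 3 and isotype and 5 between day 0 and day 3. These are 8.45%, 8.45% and 7.04%, where all tested genes had 7.01%, 10.6% and 6.27%.

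Markers of spleen cell types were summed per array to show what else moved with the macrophage genes. As background for the marker calls against syngeneic, 4.28% of all tested genes were called lower in isotype, 4.24% in day 0 and 4.33% in day 3. Called higher were 2.66%, 3.15% and 3.15% in the same order. Red pulp macrophage markers had the lowest share of their syngeneic sum among 11 lists. All 5 tested of 7 (Slc40a1, Vcam1, Hmox1, Spic and Cd163) were called lower in isotype, and their summed signal was 29429 on the syngeneic array, 2293 to 2523 on the isotype arrays, 3956 to 4264 on the day 0 arrays and 3459 to 3786 on the day 3 arrays. The allogeneic arrays were thus at 7.79% to 14.5% of the syngeneic sum. Slc40a1, the iron exporter ferroportin, was 826 ± 70.8 in isotype against 10891 in syngeneic. Cd163 passed the filter on low signal only through the syngeneic array (417 there, 66.5 in isotype, 56.7 in day 0 and 65.3 in day 3). The direction of its change was thus set by the filter. Of 4 tested of 5 marginal zone macrophage markers, 1 fell, the scavenger receptor gene Marco (-2.50 ± 0.19, adjusted p = 0.00242). Nr1h3 (-0.77 ± 0.22, adjusted p = 0.103) and Msr1 (-0.82 ± 0.29, adjusted p = 0.159) did not pass. Siglec1 went the other way and did not pass in any group. It read 20.5 on the syngeneic array, 63.2 ± 39.7 in isotype, 188 ± 68.3 in day 0 and 162 ± 137 in day 3. The sum of the 4 markers was 1709 on the syngeneic array, of which Marco made up 1114. It was 500 to 521 in isotype, 940 to 1094 in day 0 and 916 to 1132 in day 3.

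The marker sums of cell types that also carry CD11b differed from one another in their course. Of 10 tested of 12 neutrophil markers 8 fell in isotype, S100a9 among them (-2.18 ± 0.20, adjusted p = 0.00357), and 6 did so without either isotype array; 7 fell in day 0 and 7 in day 3. Their sum was 40535 on the syngeneic array, 10533 to 10911 in isotype, 13745 to 14395 in day 0 and 10877 to 11487 in day 3. The day 0 arrays were the highest of the allogeneic arrays for this sum, as they were for Itgam. The same held for the red pulp macrophage and monocyte sums. The markers within the sums did not all do so. Of the neutrophil markers, S100a8, S100a9, Ngp, Camp, Ltf and Lcn2 had their highest allogeneic mean in day 0. Mpo (1442, day 0 1303), Elane (535, day 0 472) and Mmp9 had it in day 3, and Mmp8 in isotype. Of the red pulp macrophage markers, Slc40a1, Vcam1 and Spic had it in day 0, Hmox1 in day 3 (905, day 0 744) and Cd163 in isotype. Against the syngeneic array, the neutrophil sum was at 33.9% and 35.5% in day 0, where Itgam was at 162% and 172%. Monocyte markers (8 tested of 9) summed to 22004 on the syngeneic array, 22146 to 24997 in isotype, 25172 to 25351 in day 0 and 20940 to 20946 in day 3. Against syngeneic, 2 of them fell in day 3, and limma called 0 in day 0, where 4 had an unadjusted p below 0.05. Lyz2 and Fn1 fell in isotype, while Plac8 and Ifitm3, which make up most of the sum, had log2 changes of 0.62 (adjusted p = 0.139) and 0.24 (adjusted p = 0.495). The call of Lyz2 was lost without isotype array 1 (up to 0.0863 over all alternatives) and that of Fn1 without any 1 array (up to 0.147). Natural killer cell markers (6 tested of 8) summed to 4342, 2599 to 3071, 3153 to 3350 and 3227 to 3802, and of them Klra7 fell. Klra7 passed the filter on low signal only through the syngeneic array (471 there, 44.4 in isotype, 72.3 in day 0 and 39.6 in day 3), which set the direction of its change. In the 3 comparisons between allogeneic groups limma called 0 of all 73 tested markers. Of them, 15 (day 0 and isotype), 23 (day 3 and isotype) and 13 (day 0 and day 3) had an unadjusted p below 0.05. These are 20.5%, 31.5% and 17.8%, where all tested genes had 7.01%, 10.6% and 6.27%. The part of these cell types in the values of Itgam and of the other genes was not tested.

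Of the remaining lists, T cell markers summed to 134% to 169% of syngeneic on the allogeneic arrays (of 9, 3 rose in isotype, 3 in day 0 and 2 in day 3), B cell markers to 44.3% to 66.9%, dendritic cell markers to 45.4% to 60.7% and erythroid markers to 29.9% to 50.9%. Of 7 tested B cell markers 1 fell in isotype, 4 in day 0 and 4 in day 3 against syngeneic. Of 7 erythroid markers 3, 6 and 3 fell in the same order, and of 7 dendritic cell markers 1 in each. Megakaryocyte and platelet markers (94.6% to 146%) and those of stroma and endothelium (72.4% to 99.8%) had no call among 6 and 4 tested genes in any of these comparisons, though 1 megakaryocyte marker was called higher in isotype without either day 3 array. The isotype calls rested on 1 array for the B cell gene Fcer2a (isotype array 1), the dendritic cell gene Ccr7 and the erythroid gene Gata1 (isotype array 2), and for the T cell gene Thy1 they were lost without either. A fit to the compared groups alone called 0 of the T, B and dendritic cell markers. For comparison, Csf1r stood at 17.9% to 26.0% of syngeneic on the allogeneic arrays and Itgam at 71.2% to 172%.

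**Figure D4:**
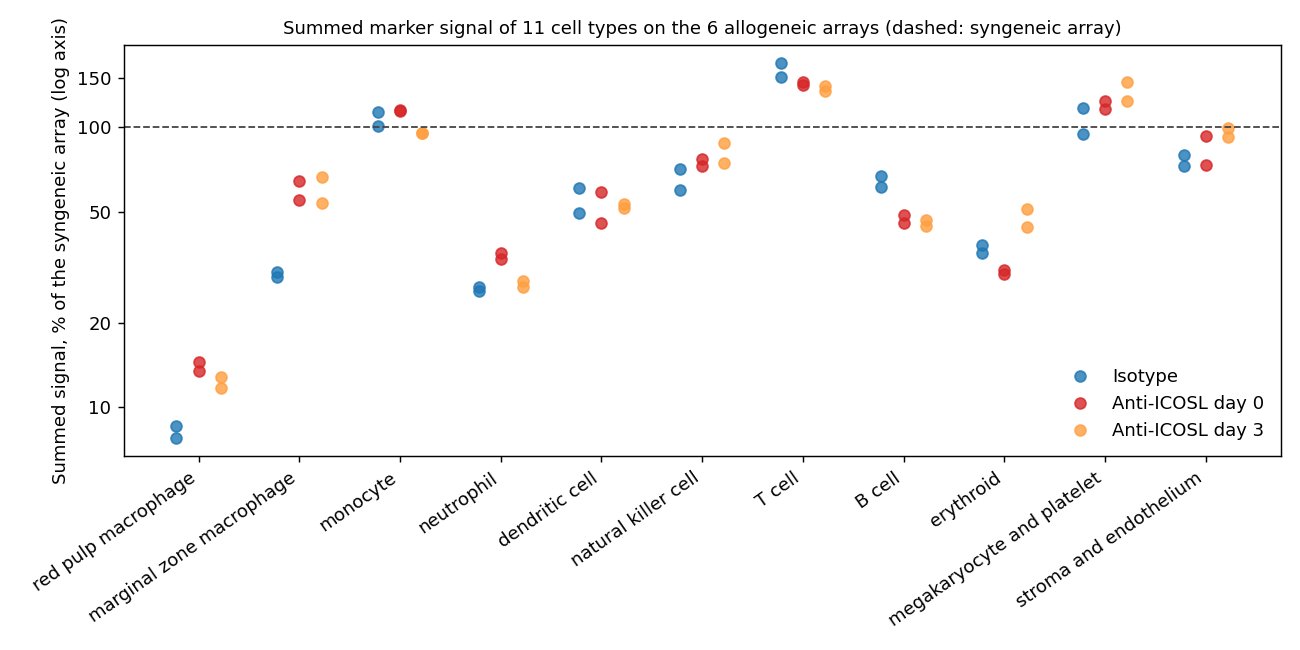
Summed marker signal of 11 cell types on the 6 allogeneic arrays as percent of the syngeneic array (log axis, dashed line at 100), with colours for the groups. Red pulp macrophage markers are lowest (7.79% to 14.5%). The neutrophil, monocyte and red pulp macrophage sums are highest in day 0 among the allogeneic groups, though not every marker in them is.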

How the data were processed

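Transcripts of spleen cells were measured on 7 Affymetrix arrays with 10 µg of labelled RNA each. The deposited values are MAS5 signal intensities per probe set, not logged, and the name MAS5 comes from the submitters' processing notes. The MAS5 version was not given in the sources used here. Precision is limited by how few arrays there are. From the 22690 probe sets the 64 controls were removed. Probe sets were named by the platform annotation: 20380 had 1 symbol, 691 several and 1555 none, and 0 symbols needed an update through RefSeq gene IDs. Only those with 1 symbol are named.

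Signals were analysed as log2(signal + 50), which understates changes of dim genes. Low signal was filtered by asking for a group mean of 99.7 or more, the 40th percentile of all signals, in 1 or more groups. This kept 15372 probe sets of 8947 named genes and of unnamed ones. A single fit over all arrays and 4 groups gave 6 comparisons with limma 3.58.1 in R 4.3.3 (3 residual degrees of freedom, 3.36 prior). It takes the spread of the single syngeneic array to be that of the other groups, and no SD is given there. P-values were two-sided and adjusted after Benjamini and Hochberg over all tested probe sets, and those below 0.05 are called. Log2 changes carry their SE. A gene with several probe sets was counted by the brightest. The procedure was tested on simulated data, drawn as independent normal values with the same spread in every group. Such data cannot test what is assumed of the single syngeneic array or of pooled RNA.

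All members were named with every probe set, with up to 4 genes of each list by largest change between isotype and syngeneic, the 3 genes most like each member, and markers needed to describe a cell type. Genes, lists and rules were chosen with earlier results of these data known. Alternatives were pseudocounts of 16 and 100, no filter on low signal or one at the 60th percentile, median centring and quantile normalization. Others were the compared groups alone, trend and robust options, a block for the replicate number, and leaving out each array. Repeating the counts of the gene lists under these settings was added after seeing the data.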

Additional observations from a re-analysis of the deposited data

How the results depend on the processing

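Calls of single probe sets depended on the settings. Between isotype and syngeneic, 1017 probe sets were called, 1616 with a filter at the 60th percentile, 542 with none, 311 with the compared groups alone and 1786 with trend and robust options. For day 0 against syngeneic the count was 1081, and under the same settings 1783, 552, 958 and 1945. For day 3 against syngeneic it was 1108, then 1794, 526, 0 (with 0 member genes called) and 1898. Without 1 array the counts ran from 406 to 713 (3 to 4 member genes), 258 to 928 (2 to 4) and 289 to 910 (2 to 4). The lowest were those without isotype array 2 (406; 516 without array 1), day 0 array 2 (258; 261 without array 1) and day 3 array 2 (289; 334 without array 1), and day 3 against syngeneic had 654 without either day 0 array. Against isotype and between anti-ICOSL groups, where 0 were called (0 to 0 without 1 array), the filter at the 60th percentile gave 13, 8 and 7, pseudocount 100 gave 3, 2 and 6, and trend and robust options gave 21, 5 and 12 (in the order of day 0 and day 3, each against isotype, and then the pair of starts), with 0 member genes in each. A change of sign occurred only for differences that had not passed. For day 3 minus isotype, Mpeg1 ran from -0.014 without isotype array 2 to 0.39 with another array left out. For day 0 minus day 3, Mpeg1 ran from -0.14 without day 0 array 1 to 0.37. The third probe set of Csf1r (1423593_a_at) had 0.0047 with median centring and ran from -0.28 to 0.18 with an array left out, above 0 without day 0 array 2 or day 3 array 2. Its other sets ran from -0.061 to 0.13 (1419872_at) and from -0.017 to 0.18 (1419873_s_at), below 0 without day 3 array 2. For day 3 minus syngeneic, Itgam ran from -0.048 without day 3 array 1 to 0.11. The cause was not tested. The replicate number as a block changed no call between allogeneic groups (0 called in each), and arrays with the same number did not deviate together (correlations -0.01, 0.07 and 0.04), so the numbers are not taken to pair them. Signal over background was not given, and the single syngeneic array limits every comparison with it.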

Other observations

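Lyz2 and Fn1, picked after their values were seen, are 2 of the 5 monocyte markers, of 8 tested, whose mean was highest in day 0 among the allogeneic groups. Plac8 and Ms4a6c were highest in isotype and F13a1 in day 3. Lyz2, the lysozyme gene of myeloid cells, read 1945 ± 58.5 (SD, n = 2) with anti-ICOSL from day 0, 1424 ± 233 with isotype and 935 ± 41.9 with anti-ICOSL from day 3. Fn1, fibronectin, read 1656 ± 146, 1001 ± 56.2 and 886 ± 79.8. Between the antibody starts the log2 change was 1.02 ± 0.18 for Lyz2 (limma, adjusted p = 0.477) and 0.87 ± 0.17 for Fn1 (adjusted p = 0.538), and neither passed the test. Marco, a receptor of marginal zone macrophages, read 417 ± 15.4 in day 0, 431 ± 4.42 in day 3 and 156 ± 2.14 with isotype. Its log2 change against isotype was 1.18 ± 0.15 in day 0 (adjusted p = 0.154) and 1.22 ± 0.15 in day 3 (adjusted p = 0.189), and both comparisons use the same isotype arrays.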
